A study of Mus musculus with 12 samples.

Results

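The genes described here encode 6 selective autophagy receptors, Calcoco2, Calcoco1, Sqstm1, Nbr1, Optn and Tax1bp1, and 4 Atg8 proteins, Map1lc3a, Map1lc3b, Gabarapl1 and Gabarapl2. They are 10 of the 54446 genes listed in every library, were found by gene symbol, and were chosen by name with their levels in these same libraries already known. Their levels and differences are therefore a description, with no test and no threshold behind the choice. Transcript levels were measured by total RNA sequencing and are given as TPM, a read density scaled by transcript length and set to sum to 1000000 in each library, so that levels of different genes can be compared and a change in RNA per cell cannot be seen.

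In selective autophagy, receptors recognise cargo such as ubiquitinated protein aggregates, damaged mitochondria or invading bacteria, and bind Atg8 proteins held in the membrane of the forming autophagosome. The Atg8 proteins fall into the LC3 and GABARAP subfamilies and are attached to lipid by a conjugation machinery. The mTOR kinase restrains the onset of autophagy when nutrients are plentiful, and its inhibition places mouse embryonic stem (ES) cells in a dormant state that resembles embryonic diapause, the pause of the blastocyst.

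The 12 libraries came from mouse ES cells of 2 lines, KH and DNMT3ABKO, the second lacking Dnmt3a and Dnmt3b, the enzymes of de novo DNA methylation. Each line was sampled as an untreated control (0 h) and after 72 h and 144 h with the mTOR inhibitor INK128, with 2 libraries in each of the 6 groups. The comparisons ask how these transcripts moved on the way into dormancy and whether they moved differently without de novo methylation. The paper, scaling to spiked-in ERCC RNA, reported a global decrease of transcription under mTOR inhibition, also in the Dnmt3a/b double knockout. Levels said here to be higher or to rise are therefore shares of a library's RNA, and RNA per cell may have moved otherwise. The labels place E14 before both line names, whereas the methods describe a wild-type KH2 line and a Dnmt3a/b double knockout, both grown on mitomycin-treated feeder cells; the design text names a TET1/2 double knockout, which no sample analysed here carries. There was 1 line per genotype and no untreated culture at 72 h or 144 h, so that genotype and line, and treatment and time in culture, cannot be told apart. The study's reporting statement says that experiments were repeated independently and that time points of a replicate were handled in parallel. The labels only number the 2 libraries of a group and do not tie a number to a culture or run, so p-values measure the spread between these libraries.

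The methyltransferase transcripts matched the line labels. In DNMT3ABKO, Dnmt3a stood at 9.45, 12.3 and 19.4 TPM at 0, 72 and 144 h against 56.2, 60.9 and 110 TPM in KH. Dnmt3b stood between 12.9 and 26.9 TPM against 145 to 257 TPM. Both differed between the lines at every time (log2 differences from -2.24 to -3.39, limma with Benjamini-Hochberg adjustment, largest adjusted p = 0.000464). Replicate libraries correlated across genes with r between 0.993 and 0.996, except in DNMT3ABKO at 0 h, where r was 0.985 and the residual SD was 0.27 against 0.13 to 0.18 in the other groups. All 10 ES cell markers, Pou5f1, Nanog and Sox2 among them, were measured in every library. Fibroblast and macrophage markers were measured too, and their levels are given below beside the results they moved with. In bulk RNA, fewer cells of a type and less RNA per cell cannot be told apart.

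The 10 genes lie on 5 chromosomes of the mm10 build. Of the receptors, Calcoco2 (chr11:96099326-96111964), Sqstm1 (chr11:50199366-50210827), Calcoco1 (chr15:102706777-102722178) and Optn (chr2:5020642-5064051) are on the minus strand, and Nbr1 (chr11:101552149-101581951) and Tax1bp1 (chr6:52713729-52766780) on the plus strand. The 4 Atg8 genes, all on the plus strand, are Map1lc3a (chr2:155276297-155278073), Map1lc3b (chr8:121590361-121598760), Gabarapl1 (chr6:129533160-129542346) and Gabarapl2 (chr8:111940703-111953612). No stretch of 50 bases was shared between transcripts of these 10 genes. Stretches shared with predicted genes made up 17.0% of Gabarapl2, 10.2% of Calcoco2 and 6.39% of Map1lc3b, so reads there could be divided among copies and these 3 levels carry that uncertainty.

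RefSeq promoter windows, 300 bases from 250 before to 50 after the start on GRCm38.p6, were matched for 8 of the 10 genes, all but Calcoco2 and Map1lc3a. The bases before the start, free of annotated exons, are shown for 4 genes: Calcoco1 and Optn, which were higher under INK128 in both lines, and Sqstm1 and Gabarapl2, which stood apart between the lines. They are written 5′ to 3′ along the gene, and capitals mark CpG, the dinucleotide that Dnmt3a and Dnmt3b methylate. DNA methylation itself was not measured in these libraries. Calcoco1 is shown at chr15:102722179-102722428 (minus strand), Optn at chr2:5064118-5064367 (minus strand), Sqstm1 at chr11:50210828-50210889 (minus strand) and Gabarapl2 at chr8:111940453-111940702 (plus strand).
Calcoco1: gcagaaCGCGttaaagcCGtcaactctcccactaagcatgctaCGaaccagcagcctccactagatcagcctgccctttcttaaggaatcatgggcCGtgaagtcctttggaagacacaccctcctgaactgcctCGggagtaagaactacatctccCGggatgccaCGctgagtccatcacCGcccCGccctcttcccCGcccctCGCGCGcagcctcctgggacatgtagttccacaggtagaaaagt
Optn: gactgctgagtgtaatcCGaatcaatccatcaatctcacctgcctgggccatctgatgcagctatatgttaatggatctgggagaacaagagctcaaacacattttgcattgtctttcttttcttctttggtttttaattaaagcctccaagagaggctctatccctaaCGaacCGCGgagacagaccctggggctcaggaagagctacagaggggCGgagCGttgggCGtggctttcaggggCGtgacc
Sqstm1: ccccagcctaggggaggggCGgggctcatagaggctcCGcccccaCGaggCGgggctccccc
Gabarapl2: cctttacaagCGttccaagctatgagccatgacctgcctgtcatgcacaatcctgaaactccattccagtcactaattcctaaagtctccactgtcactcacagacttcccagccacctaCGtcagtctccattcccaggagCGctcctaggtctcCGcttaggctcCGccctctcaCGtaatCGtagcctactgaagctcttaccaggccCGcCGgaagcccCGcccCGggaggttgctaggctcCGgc
The Calcoco1 stretch of 250 bases holds 14 CpG, the Gabarapl2 stretch 12 and the Optn stretch 8, and the shorter Sqstm1 stretch of 62 bases holds 4.

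Over the whole windows of the 8 matched genes, CpG numbered from 12 in Gabarapl1 to 34 in Map1lc3b, against a median of 7 and quartiles of 3 and 20 over all 32851 promoter windows. On either strand, the letters CACGTG, the E-box read by Tfeb and Tfe3, were in 0 of 8 genes' windows and in 7.15% of all windows. CATGTG, the related M-box core, was in 0 of 8 against 14.2%, and the FOXO motif GTAAACA in 0 of 8 against 3.65%. TGACNNNGC, the core of the antioxidant response element, was in Map1lc3b and Tax1bp1 and in 12.4% of all windows. CCAAT was in Nbr1 alone of the 8, and in 37.4% of all windows. Nbr1 and Tax1bp1 had 2 windows each and counted when either held a motif, whereas the shares are per window. Sites outside these windows were not searched.

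Calcoco2 was the transcript with the largest difference among the 10. It encodes the mouse form of NDP52, which in human cells brings ubiquitin-coated bacteria and damaged mitochondria to the autophagy machinery. Whether the mouse protein does so was not examined here. In untreated cells Calcoco2 stood at 70.9 and 78.0 TPM in KH and at 80.7 and 89.9 TPM in DNMT3ABKO. After 72 h of INK128 it stood at 4.68 and 6.07 TPM in KH and at 2.16 and 2.04 TPM in DNMT3ABKO. After 144 h it stood at 4.67 and 3.90 TPM in KH and at 5.96 and 5.64 TPM in DNMT3ABKO. Every treated library was far below every untreated one, and the lowest pair was DNMT3ABKO at 72 h. The mean level was 13.9-fold lower at 72 h and 17.4-fold lower at 144 h in KH, and 40.7-fold and 14.7-fold lower in DNMT3ABKO. On the scale of log2(TPM + 1), on which all differences below are given, these were differences of -3.57 and -3.84 in KH and of -4.80 and -3.66 in DNMT3ABKO, each with a standard error (SE) of 0.12. Between 72 h and 144 h the 2 KH pairs nearly met (difference -0.27), whereas DNMT3ABKO was 2.77-fold higher at 144 h (difference 1.13).

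The lines therefore stood apart in Calcoco2 at 72 h, when DNMT3ABKO was 2.56-fold lower (difference -1.03), and by less at 144 h, when DNMT3ABKO was higher by 0.37. The 144 h difference lost its call (adjusted p under 0.05 by limma) when any 1 of its 4 libraries was left out (0.26 to 0.47) and under a replicate block. That call was also lost without the filter on low levels. The 72 h response itself differed between the lines by -1.23 (SE 0.17), and no difference of response was called at 144 h (0.17). Among 12501 genes compared over the 12 libraries, the levels of Cox5a, Phlda3, Capzb, Ckb and Brk1 were most like those of Calcoco2 (Pearson r of 0.99 each). Untreated and treated libraries form separate clusters in these 6 genes, so r here mostly restates that separation.

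**Figure D1:**
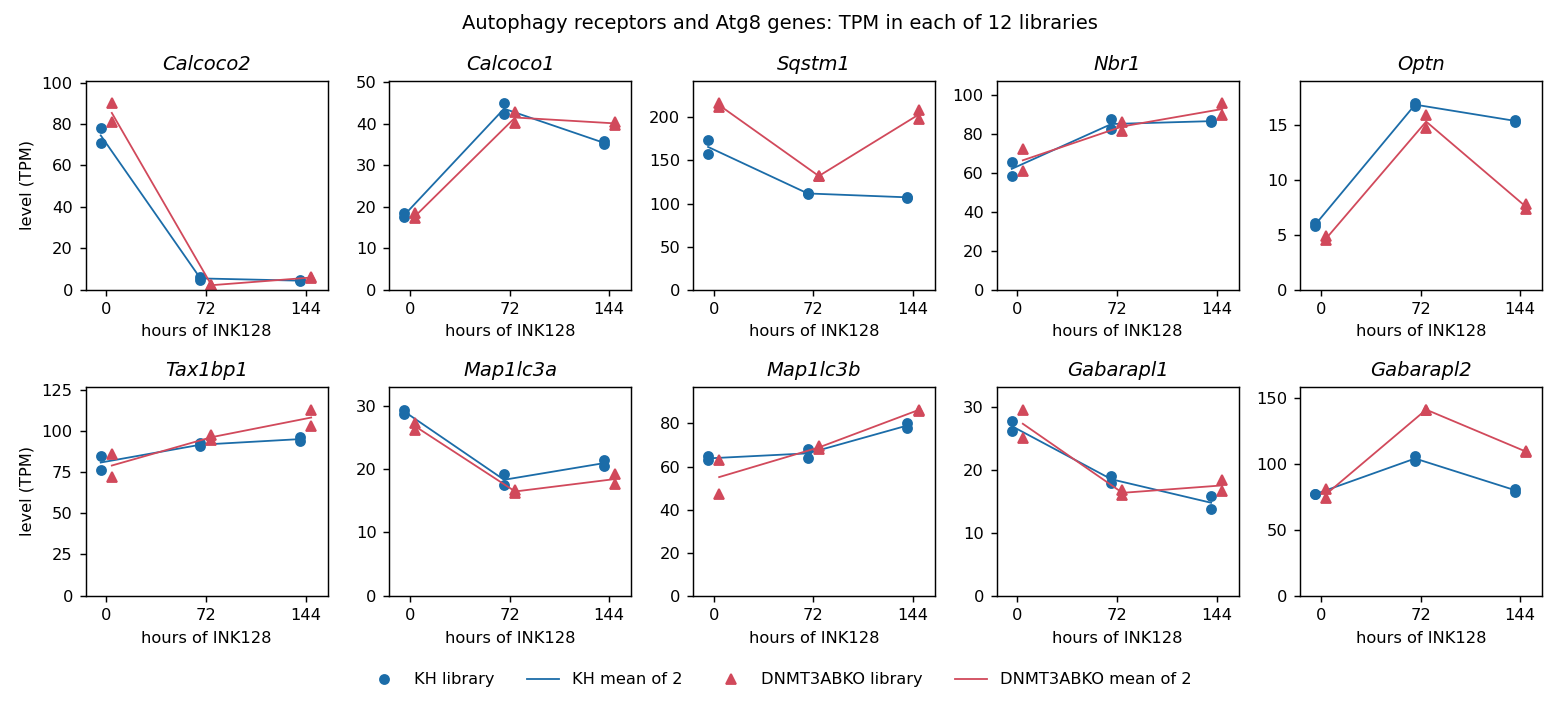
Levels in TPM of the 10 genes (vertical axes, 1 panel per gene, each with its own scale) against hours of INK128; points are the 12 libraries and lines join the means of 2 in KH and DNMT3ABKO. Calcoco2 starts at 70.9 to 89.9 TPM and is at or below 6.07 TPM in every treated library, while Calcoco1 and Optn are higher in every treated library than in any untreated one.

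By the methods these cultures held feeder cells, and viable single cells were sorted by scatter gates before RNA extraction, with no marker of cell type named for the sort. Markers of fibroblasts and macrophages were still measured, and they moved with treatment. All 16 fibroblast markers tested, of 18 listed (Col1a1 and Col3a1 among them), fell at both times in both lines. Their summed level was 2498, 802 and 199.6 TPM at 0, 72 and 144 h in KH and 2742, 633 and 184 TPM in DNMT3ABKO. Of 11 macrophage markers tested, 7 fell at 72 h and 11 at 144 h in KH, and 8 and 10 in DNMT3ABKO; 1 rose at 72 h in each line. Their summed level was 320.4, 226 and 39.1 TPM in KH and 278, 154 and 55.3 TPM in DNMT3ABKO. The macrophage marker Aif1 was listed at 0 in all 4 libraries of 144 h, C1qb in both KH libraries of 144 h and Tyrobp in 1 of them, and no fibroblast marker was at 0 in any library. Of the 10 ES cell markers, 9 and 8 rose in KH at 72 h and 144 h, and 8 and 7 in DNMT3ABKO, where 1 fell at each time. Their summed level was 1.43-fold and 1.46-fold higher at 72 h and 144 h in KH and 1.31-fold and 1.42-fold higher in DNMT3ABKO.

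Set beside those lists, Calcoco2 was lower by more at 72 h and by a like factor to the fibroblast sum at 144 h. At 72 h in KH it was 13.9-fold lower while the summed fibroblast level was 3.12-fold lower and the summed macrophage level 1.42-fold lower. At 72 h in DNMT3ABKO the factors were 40.7, 4.33 and 1.81. At 144 h against 0 h Calcoco2 was 17.4-fold lower in KH and 14.7-fold in DNMT3ABKO, the fibroblast sum 12.5-fold and 14.9-fold, and the macrophage sum 8.20-fold and 5.03-fold. From 72 h to 144 h the fibroblast sum was lower again by 4.02-fold in KH and 3.44-fold in DNMT3ABKO, while Calcoco2 was at nearly the same level in KH and higher in DNMT3ABKO. Between the lines at 72 h, when Calcoco2 was 2.56-fold lower in DNMT3ABKO, 10 of 11 macrophage markers and 3 of 16 fibroblast markers were also lower there, the fibroblast sum by 1.27-fold. The part of other cells in the levels of Calcoco2, of the 9 other genes and of every gene named below was not tested.

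**Figure D2:**
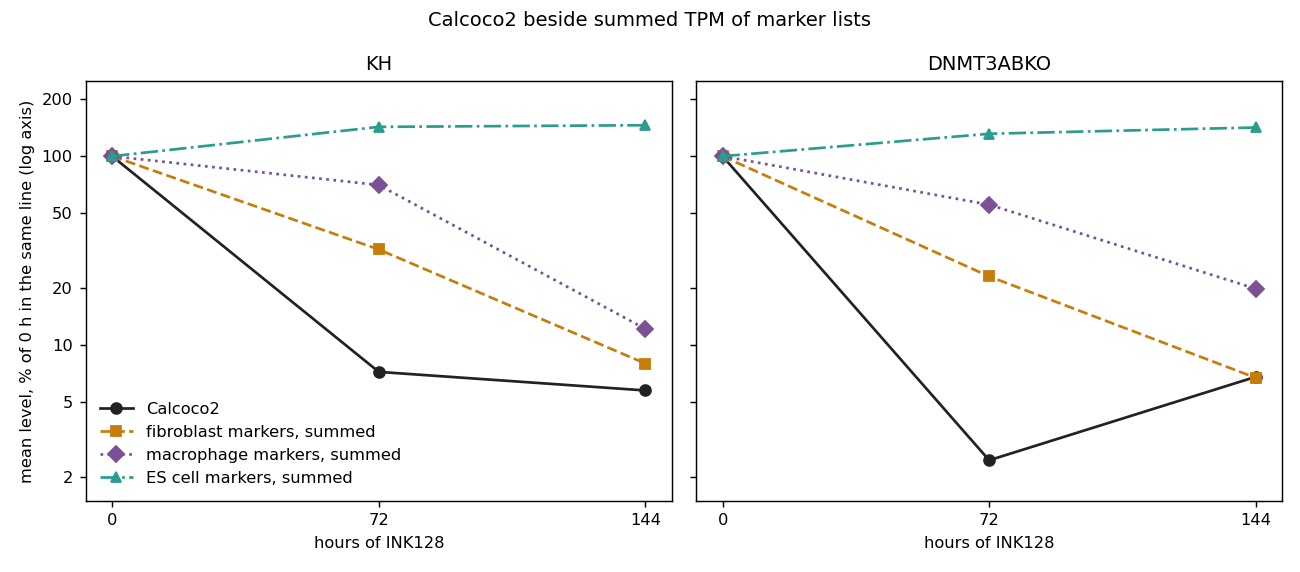
Mean level as a percentage of the 0 h mean of the same line (vertical log axis) against hours of INK128, for Calcoco2 and for the summed TPM of 18 fibroblast, 12 macrophage and 10 ES cell markers; each point is a mean of 2 libraries, KH on the left and DNMT3ABKO on the right. Calcoco2 is at 7.22% and 2.46% of its start by 72 h, below both marker sums, and at 5.76% and 6.80% by 144 h.

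Calcoco1, the paralogue of Calcoco2 and a receptor for turnover of the endoplasmic reticulum, went the opposite way. It stood at 17.4 and 18.5 TPM in KH and 18.3 and 17.2 TPM in DNMT3ABKO before treatment. It stood at 44.9 and 42.3 TPM and at 40.1 and 42.8 TPM at 72 h, and at 35.7 and 35.0 TPM and 39.8 and 40.3 TPM at 144 h. No treated library came near an untreated one. The mean was 2.43-fold and 1.97-fold higher in KH (differences 1.23 and 0.94, SE 0.07) and 2.33-fold and 2.25-fold higher in DNMT3ABKO (1.18 and 1.13). The lines overlapped at 0 h and 72 h. In KH the level at 144 h was below that at 72 h by 0.29, a call that was lost without KH 72 h replicate 1 (-0.25), KH 144 h replicate 1 (-0.31) or KH 144 h replicate 2 (-0.28).

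Optn, encoding optineurin, a receptor acting in mitophagy and phosphorylated by the kinase Tbk1, was the scarcest receptor in untreated cells. It stood at 5.83 and 6.02 TPM in KH and at 4.84 and 4.53 TPM in DNMT3ABKO. At 72 h the lines lay close, with 16.9 and 16.7 TPM in KH and 14.7 and 15.9 TPM in DNMT3ABKO. At 144 h KH stood at 15.2 and 15.5 TPM and DNMT3ABKO at 7.31 and 7.78 TPM, still above its start. Thus KH was 2.84-fold and 2.59-fold above its start (differences 1.36 and 1.24, SE 0.08), and DNMT3ABKO 3.27-fold and then 1.61-fold (1.52 and 0.59). The level in DNMT3ABKO was 2.03-fold lower at 144 h than at 72 h (difference -0.93), and at 144 h it was 2.04-fold below KH (difference -0.94). The difference between the lines in the 144 h response was -0.65 (SE 0.11), and that in the 72 h response, 0.15, was not called.

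Sqstm1, encoding p62, the receptor that gathers ubiquitinated proteins into condensates and is itself degraded by autophagy, was the most abundant of the 10 transcripts in 5 of the 6 groups. It stood at 158 and 174 TPM in KH and 216 and 212 TPM in DNMT3ABKO before treatment. At 72 h it stood at 112 and 111 TPM in KH and at 132 TPM in both DNMT3ABKO libraries. At 144 h KH held 108 and 107 TPM, whereas DNMT3ABKO held 209 and 198 TPM. DNMT3ABKO was above KH at every time without overlap, by 1.29-fold, 1.18-fold and 1.90-fold (differences 0.37, 0.24 and 0.92, SE 0.06). The 72 h difference between the lines lost its call without any 1 of its 4 libraries (0.23 to 0.25) and when replicate numbers were fitted as a block. The 0 h difference lost its call when only the compared groups were fitted.

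Relative to its own start, Sqstm1 was lower in KH at both times (differences -0.56 and -0.62) and in DNMT3ABKO at 72 h only (-0.70), since at 144 h DNMT3ABKO stood at -0.08, uncalled, after a difference of 0.62 from 72 h. The 144 h response differed between the lines by 0.55 (SE 0.09), and the 72 h response by -0.13, uncalled. The genes most like Sqstm1 over the 12 libraries were Cacng4 (r = 0.97), Sptlc2 (r = 0.96), Pramel7 (r = 0.95), Spp1 and Fam167a (r = 0.94 each), among 12501 genes and again over libraries that cluster by group. Sqstm1 overlaps Mrnip in the annotation, and whether counting used the strand is not stated.

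Nbr1, a receptor that works with p62 in aggregate clearance, was higher under INK128 in both lines. It stood at 58.4 and 65.5 TPM in KH and 60.7 and 72.1 TPM in DNMT3ABKO at 0 h. It stood at 87.7 and 82.3 TPM and at 85.9 and 81.6 TPM at 72 h, and at 85.9 and 87.0 TPM and 89.8 and 95.6 TPM at 144 h. All treated libraries were above all untreated ones, by 1.37-fold and 1.40-fold in KH (differences 0.45 and 0.48, SE 0.09) and 1.26-fold and 1.40-fold in DNMT3ABKO (0.34 and 0.48). The summed ES cell marker level was higher by slightly larger factors at each time in both lines, and its bearing on Nbr1 was not tested. The DNMT3ABKO difference of Nbr1 at 72 h lost its call without DNMT3ABKO 72 h replicate 1 (0.30) and when only the compared groups were fitted. The lines overlapped at 0 h and 72 h.

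Tax1bp1, a paralogue of NDP52 that carries ubiquitinated cargo, differed least from its start among the receptors in KH and at 72 h in DNMT3ABKO. It stood at 76.5 and 85.0 TPM in KH and 72.1 and 85.8 TPM in DNMT3ABKO at 0 h, at 90.8 and 92.3 TPM and 97.7 and 94.5 TPM at 72 h, and at 96.1 and 93.8 TPM and 103 and 113 TPM at 144 h. Treated and untreated libraries did not overlap, yet the KH differences of 0.18 and 0.23 (SE 0.09) were not called, and those of DNMT3ABKO, 0.29 and 0.45, were. The 72 h call in DNMT3ABKO was lost without DNMT3ABKO 0 h replicate 1 (0.16), DNMT3ABKO 72 h replicate 1 (0.26) or DNMT3ABKO 72 h replicate 2 (0.31), and the KH difference at 144 h was called without KH 0 h replicate 2 (0.31). When only the compared groups were fitted, the DNMT3ABKO call at 72 h was lost and KH at 144 h was called. With libraries scaled by median ratios KH at 144 h was also called (0.17).

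**Figure D3:**
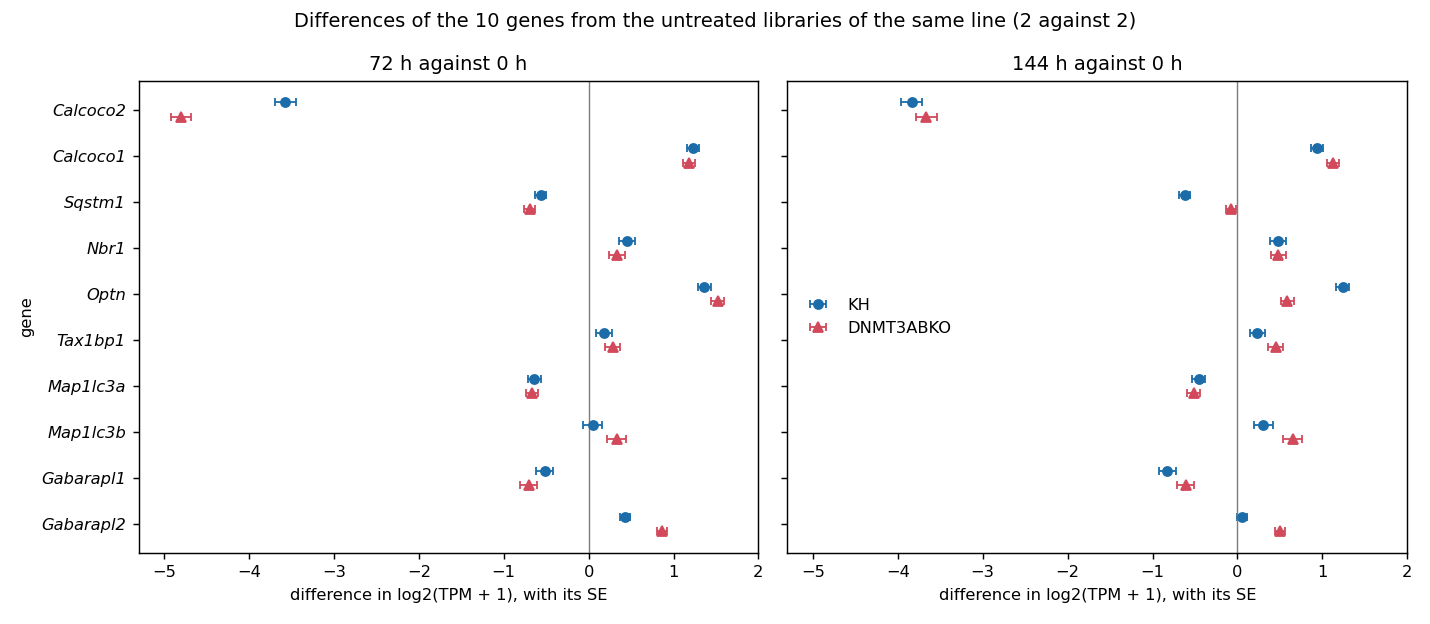
Differences in log2(TPM + 1) from the untreated libraries of the same line (horizontal axis), with their SE as bars, for the 10 genes at 72 h and at 144 h in KH and DNMT3ABKO (2 libraries against 2). Calcoco2 lies between -3.57 and -4.80, Calcoco1 and Optn lie to the right of 0, and at 144 h the lines part for Sqstm1 (-0.62 and -0.08) and Optn (1.24 and 0.59).

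The make-up of the receptor transcripts shifted with these levels. Calcoco2 made up 18.3% of the summed TPM of the 6 receptors in untreated KH and 18.2% in untreated DNMT3ABKO. It made up 1.52% and 1.25% at 72 h and 144 h in KH, and 0.566% and 1.27% in DNMT3ABKO. Calcoco1 went from 4.42% to 12.3% and 10.3% in KH and from 3.81% to 11.2% and 8.75% in DNMT3ABKO. The summed level of all 6 receptors was 407 ± 28.5, 354 ± 4.51 and 344 ± 2.53 TPM (SD, n = 2) at 0, 72 and 144 h in KH. It was 467 ± 20.3, 371 ± 2.14 and 457 ± 3.73 TPM (SD, n = 2) in DNMT3ABKO. Without Calcoco2 the sum of the other 5 was 332, 349 and 339 TPM in KH, no lower than untreated, and 382, 369 and 452 TPM in DNMT3ABKO.

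Among the Atg8 genes, Map1lc3a and Gabarapl1 were lower under INK128 and Gabarapl2 and Map1lc3b were not. Map1lc3a, encoding the LC3A protein, stood at 29.4 and 28.7 TPM in KH and 26.1 and 27.3 TPM in DNMT3ABKO at 0 h. It stood at 19.1 and 17.4 TPM and at 16.6 and 16.3 TPM at 72 h, and at 21.4 and 20.5 TPM and 19.2 and 17.6 TPM at 144 h. All treated libraries were below all untreated ones, with differences of -0.64 and -0.46 in KH and -0.67 and -0.51 in DNMT3ABKO (SE 0.08). No difference between the lines was called at any time (-0.12, -0.14 and -0.18).

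Gabarapl1, of the GABARAP subfamily, stood at 26.2 and 27.9 TPM in KH and 25.1 and 29.6 TPM in DNMT3ABKO at 0 h. It stood at 19.1 and 18.0 TPM and at 16.8 and 16.0 TPM at 72 h, and at 15.8 and 13.8 TPM and 16.7 and 18.4 TPM at 144 h. Here too no treated library reached an untreated one, with differences of -0.52 and -0.83 in KH and -0.70 and -0.61 in DNMT3ABKO (SE 0.10). The gene overlaps the antisense gene 1700101I11Rik and the predicted gene Gm44243, whose reads cannot be told apart from its own if strand was not used.

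Map1lc3b, encoding LC3B, the Atg8 protein most used as a marker of autophagosomes, stood at 62.9 and 64.7 TPM in KH and at 47.0 and 63.2 TPM in DNMT3ABKO at 0 h, the widest replicate gap of the 10 genes in proportion. It stood at 68.1 and 64.1 TPM and at 68.1 and 69.6 TPM at 72 h, and at 80.4 and 77.7 TPM and 86.0 and 86.5 TPM at 144 h. KH at 72 h overlapped its start (0.05, uncalled), while all 144 h libraries were above the 0 h and 72 h libraries of their line. The difference at 144 h was 0.31 in KH (SE 0.11), a call lost without any 1 of the 4 libraries (0.28 to 0.33), and 0.65 in DNMT3ABKO. The call of the DNMT3ABKO difference of 0.33 at 72 h was lost without DNMT3ABKO 0 h replicate 1 (0.12), DNMT3ABKO 72 h replicate 1 (0.35) or DNMT3ABKO 72 h replicate 2 (0.32). It was also lost with libraries scaled by median ratios (0.20), without the filter on low levels and when only the compared groups were fitted. The KH call at 144 h was lost without that filter too. The predicted gene Gm6055, which shares sequence with Map1lc3b, was listed at 13.0 to 19.4 TPM in group means.

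Gabarapl2, encoding GATE-16, a GABARAP subfamily protein known from vesicle transport as well as autophagy, separated the lines. It stood at 77.2 and 77.1 TPM in KH and 80.7 and 73.9 TPM in DNMT3ABKO at 0 h, where the lines overlapped. At 72 h it stood at 102 and 106 TPM in KH and at 141 TPM in both DNMT3ABKO libraries, the highest level of any of the 10 genes in that group. At 144 h KH was back to 81.4 and 79.0 TPM, and DNMT3ABKO stood at 109 and 110 TPM. DNMT3ABKO was 1.36-fold above KH at 72 h and 1.37-fold at 144 h (differences 0.44 each, SE 0.06). From their own starts the differences were 0.43 and 0.05 in KH, the second uncalled, and 0.86 and 0.50 in DNMT3ABKO. The responses differed between the lines by 0.43 at 72 h and 0.44 at 144 h (SE 0.09). The 72 h call was lost without any 1 of 6 of the 8 libraries, namely either library of KH at 0 h, KH at 72 h or DNMT3ABKO at 72 h (0.40 to 0.46). It was also lost under the replicate block, with libraries scaled by median ratios (0.41) and when only the compared groups were fitted. The 144 h call was lost without KH 144 h replicate 2 (0.42) and when only the compared groups were fitted. Gm3724 and Gm6051, which share sequence with Gabarapl2, were listed at 10.3 to 21.4 and 3.43 to 7.70 TPM in group means.

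Gabarap, the one other Atg8 gene measured here, was not among the 10 and stood at 99.8 ± 7.73, 88.1 ± 3.41 and 85.8 ± 5.16 TPM (SD, n = 2) at 0, 72 and 144 h in KH and at 101 ± 9.42, 81.5 ± 3.55 and 91.2 ± 2.90 TPM (SD, n = 2) in DNMT3ABKO. By limma with Benjamini-Hochberg adjustment it fell in DNMT3ABKO at 72 h (-0.30, adjusted p = 0.0133). The differences at 72 h and 144 h in KH (-0.18, adjusted p = 0.118, and -0.21, adjusted p = 0.0604) and at 144 h in DNMT3ABKO (-0.14, adjusted p = 0.189) did not pass. Of the summed TPM of these 5 Atg8 genes, Gabarapl2 made up 26.0%, 35.3% and 28.6% in KH and 27.0%, 43.6% and 33.9% in DNMT3ABKO. Gabarap made up 33.6%, 29.8% and 30.6% in KH and 35.1%, 25.1% and 28.3% in DNMT3ABKO. Thus Gabarap was the leading Atg8 transcript by mean before treatment in both lines, and Gabarapl2 was at 72 h. The sum of the 4 chosen Atg8 genes was 197 ± 1.98, 207 ± 1.72 and 195 ± 5.63 TPM in KH and 186 ± 10.6, 243 ± 0.424 and 232 ± 0.735 TPM in DNMT3ABKO (SD, n = 2).

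**Figure D4:**
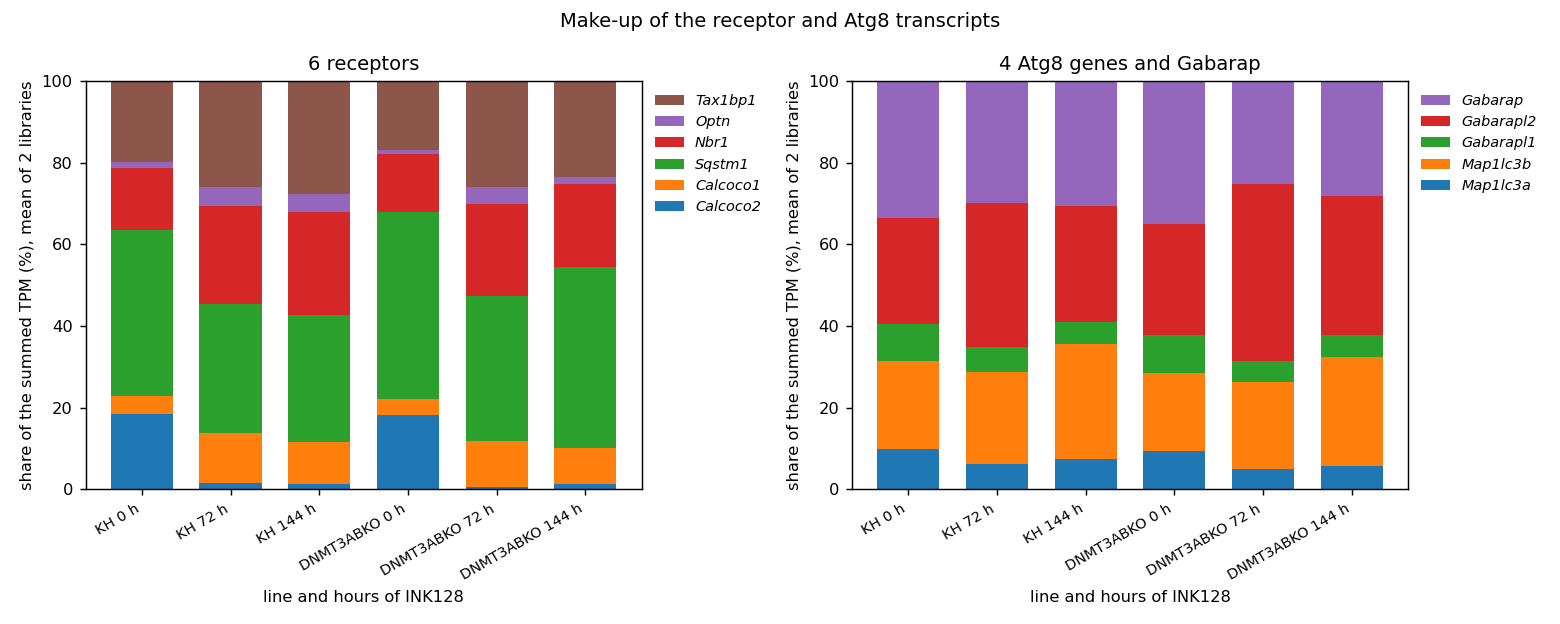
Mean share (%) of the summed TPM in each of the 6 groups (2 libraries each) held by each of the 6 receptors, left, and by the 4 Atg8 genes and Gabarap, right; stacked bars run from 0 to 100%. The Calcoco2 band goes from 18.3% and 18.2% in untreated cells to between 0.566% and 1.52% in treated ones, and the Gabarapl2 band is widest, at 43.6%, in DNMT3ABKO at 72 h.

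Ordered by level, untreated KH ran from Sqstm1 down through Tax1bp1, Gabarapl2 and Calcoco2, whose libraries overlapped one another in that order, then Map1lc3b and Nbr1, which overlapped, and on to Map1lc3a, Gabarapl1, Calcoco1 and Optn. Untreated DNMT3ABKO also began with Sqstm1, followed by Calcoco2, Tax1bp1 and Gabarapl2 with overlap between neighbours. In all 4 treated groups Calcoco2 was last. Gabarapl2 exceeded Sqstm1 in DNMT3ABKO at 72 h only, and at 144 h in that line Sqstm1 led again, with Gabarapl2 and Tax1bp1 overlapping behind it. Map1lc3a and Gabarapl1 overlapped in every group except KH at 0 h and at 144 h.

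Counts of called genes place the 10 against all 15727 genes tested (mean of at least 1 TPM), a filter that all 10 passed. In KH at 72 h 4 of the 10 were called higher and 4 lower, where 28.3% and 19.5% of all genes were. At 144 h the counts were again 4 and 4, against 27.4% and 23.9%. In DNMT3ABKO 6 were higher and 4 lower at 72 h against 34.3% and 21.6%, and 6 and 3 at 144 h against 31.4% and 26.2%. At 72 h the lines had Calcoco1, Nbr1, Optn and Gabarapl2 higher in common and Calcoco2, Sqstm1, Map1lc3a and Gabarapl1 lower. At 144 h they had Calcoco1, Nbr1, Optn and Map1lc3b higher in common and Calcoco2, Map1lc3a and Gabarapl1 lower. From 72 h to 144 h, 0 were higher and 2 lower in KH (7.24% and 15.6% of all genes), and 2 and 2 in DNMT3ABKO (8.81% and 18.5%).

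For DNMT3ABKO against KH, 1 of the 10 was higher and 0 lower at 0 h (4.92% and 4.14% of all genes), 2 and 1 at 72 h (9.26% and 10%), and 3 and 1 at 144 h (11% and 15.5%). The response differed between the lines upward in 1 and downward in 1 at 72 h (3.38% and 1.86%) and upward in 2 and downward in 1 at 144 h (4.89% and 3.7%). Since the genes were chosen with these contrasts known, nothing is read from the counts. Their median difference was 0.12 and 0.14 at 72 h and 144 h in KH and 0.31 and 0.47 in DNMT3ABKO, where the median of all genes was 0.08, 0.05, 0.12 and 0.05. Scaling the libraries by median ratios moved the all-gene median by -0.12 at 72 h in DNMT3ABKO and by -0.09 at 72 h in KH. The higher calls over all genes then made up 46.4% in place of 59.1% of calls in KH and 48.5% in place of 61.3% in DNMT3ABKO.

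Among the rest of the autophagy machinery, 67 other genes that all passed the filter, calls went both ways, as over all genes. Of them 17 rose and 11 fell at 72 h in KH and 16 and 17 at 144 h. In DNMT3ABKO 17 rose and 18 fell at 72 h, and 18 and 16 at 144 h. Of all genes, 28.3% rose and 19.5% fell at 72 h in KH, and 27.4% and 23.9% at 144 h. The shares in DNMT3ABKO were 34.3% and 21.6% at 72 h, and 31.4% and 26.2% at 144 h. The counts of the 67 are given as a description. With median-ratio scaling the splits of higher and lower were 12 and 17, and 17 and 22, in KH, and 14 and 23, and 19 and 22, in DNMT3ABKO. The medians of the list were 0.07 and -0.05 in KH and 0.06 and 0.04 in DNMT3ABKO, beside 0.08, 0.05, 0.12 and 0.05 for all genes. The 2 lines called 11 of the 67 higher and 9 lower alike at 72 h, with 1, Ulk1, called in opposite directions, and 13 higher and 10 lower alike at 144 h. From 72 h to 144 h, 3 rose and 8 fell in KH, and 9 and 9 in DNMT3ABKO (9 and 7, and 16 and 9, with median-ratio scaling). Of all genes, 7.24% rose and 15.6% fell in KH over that step, and 8.81% and 18.5% in DNMT3ABKO. Leaving out any 1 of the 4 libraries compared gave 16 to 24 calls in place of 28 for KH at 72 h against 0 h, fewest without KH 72 h replicate 1. For KH at 144 h against 72 h it gave 3 to 4 in place of 11, and a replicate block gave 7.

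Of 8 genes of the lipid kinase complex, which acts early in autophagosome formation, 2 rose and 0 fell at 144 h in each line. The counts of this role and of those below stand beside the shares of all genes at 144 h. These were 27.4% higher and 23.9% lower in KH, and 31.4% and 26.2% in DNMT3ABKO. Pik3c3, the catalytic subunit Vps34, rose from 23.6 to 33.7 TPM at 144 h in KH and from 22.9 to 39.6 TPM in DNMT3ABKO (0.50, adjusted p = 0.00148, and 0.76, adjusted p = 6.99e-05, by limma with Benjamini-Hochberg adjustment, KH first here and below). Atg14, the subunit that directs Vps34 to autophagosomes, rose from 32.3 to 38.3 TPM and from 28.2 to 55.4 TPM (0.24, adjusted p = 0.0416, and 0.95, adjusted p = 8.28e-06). Of 5 initiation complex genes, Atg101 rose in both lines (0.22, adjusted p = 0.0203, and 0.44, adjusted p = 0.000381). In that complex 2 rose in KH and 1 in DNMT3ABKO, and 0 fell.

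At 144 h membrane supply and conjugation genes were called in both directions. Of 9 membrane supply genes 1 rose and 2 fell in KH and 2 and 2 in DNMT3ABKO, with Wipi1, which binds the lipid made by Vps34, at 11.5 and then 6.73 TPM in KH and 11.7 and then 5.37 TPM in DNMT3ABKO (-0.70, adjusted p = 0.00117, and -0.99, adjusted p = 9.44e-05; limma). Atg2b, a lipid transfer protein, rose (0.38, adjusted p = 0.00421, and 0.51, adjusted p = 0.00055). Of 12 conjugation genes 2 rose and 6 fell in KH and 2 and 3 in DNMT3ABKO, and the rest were not called. The protease gene Atg4c fell (-0.62, adjusted p = 0.0006, and -0.63, adjusted p = 0.00039), and so did Atg16l2 (-0.42, adjusted p = 0.0216, and -0.63, adjusted p = 0.00227), while its paralogue Atg16l1, part of the enzyme that attaches Atg8 proteins to lipid, rose (0.26, adjusted p = 0.00938, and 0.33, adjusted p = 0.00207).

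Of 18 receptors and adaptors for organelles, 6 rose and 5 fell at 144 h in KH and 6 and 6 in DNMT3ABKO. Ccpg1, a receptor for the endoplasmic reticulum, rose from 17.2 to 33.1 TPM in KH and from 20.5 to 44.0 TPM in DNMT3ABKO (0.91, adjusted p = 4.29e-05, and 1.07, adjusted p = 8.72e-06; limma). Rtn3, another receptor for that organelle, fell from 61.8 to 37.3 TPM and from 74.4 to 42.1 TPM (-0.71, adjusted p = 0.000702, and -0.79, adjusted p = 0.000273). Stbd1, a glycogen receptor, fell from 2.63 to 0.671 TPM and from 2.03 to 0.470 TPM (-1.11, adjusted p = 0.00023, and -1.04, adjusted p = 0.000273). Of 7 kinase and ubiquitin partners of the receptors, 1 rose in KH, and 3 rose and 1 fell in DNMT3ABKO. Pink1, the mitochondrial kinase that recruits receptors such as optineurin, rose in both by limma (0.61, adjusted p = 0.000434, and 0.59, adjusted p = 0.000411).

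Of 8 genes for fusion with lysosomes, 2 rose and 4 fell at 144 h in each line. The SNARE gene Vamp8 fell in both lines, to 3.09 TPM in DNMT3ABKO (-1.01, adjusted p = 2.5e-05, and -1.87, adjusted p = 1.8e-07; limma, Benjamini-Hochberg). Ykt6, the other SNARE named here, fell by less (-0.48, adjusted p = 0.000594, and -0.58, adjusted p = 0.000135). The tethering adaptor Plekhm1 rose (0.55, adjusted p = 7.32e-05, and 0.59, adjusted p = 3.33e-05). These 3 genes and those of the other roles are placed by line in the plot of 144 h differences. The part of fibroblasts and macrophages in the levels of all these genes was not tested.

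**Figure D5:**
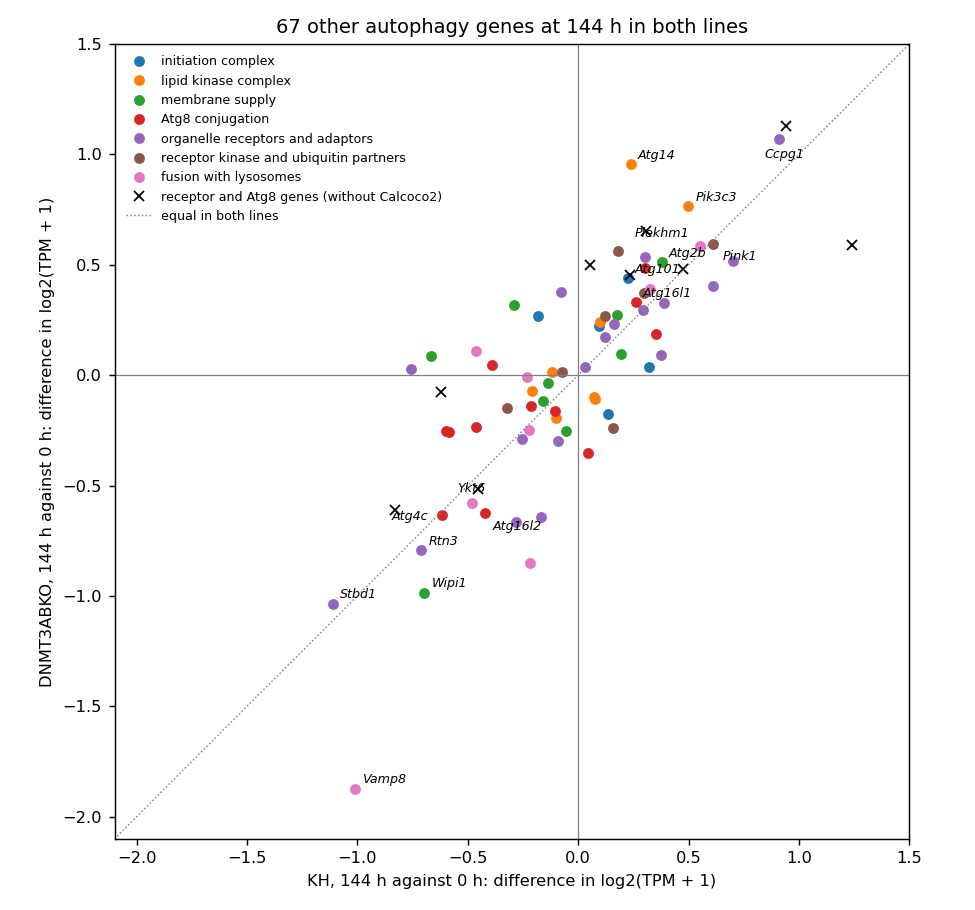
Difference in log2(TPM + 1) between 144 h and 0 h in KH (horizontal axis) and in DNMT3ABKO (vertical axis) for 67 other autophagy genes, coloured by role, with 9 of the 10 receptor and Atg8 genes as crosses (Calcoco2, at -3.84 and -3.66, lies outside the axes). Vamp8 is lowest, at -1.01 and -1.87, and Atg14 (0.24 and 0.95) lies well above the dotted line of equal difference.

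Between the lines, 1 of the 67 was higher and 2 lower in untreated DNMT3ABKO. After 72 h the counts were 2 and 8, and after 144 h they were 7 and 9. The shares of all genes were 4.92% and 4.14% untreated, 9.26% and 10% after 72 h, and 11% and 15.5% after 144 h. Median-ratio scaling gave 5 and 2 of the 67 untreated, 3 and 10 after 72 h, and 13 and 9 after 144 h. Without DNMT3ABKO 0 h replicate 2 the 0 h calls numbered 17 in place of 3, without KH 0 h replicate 1 they numbered 0, and under a replicate block 1, with Tex264 and Phb2 no longer called. At 0 h Tex264 was higher (0.35, adjusted p = 0.0251, limma) and Atg13 (-0.43, adjusted p = 0.0377) and Phb2 (-0.28, adjusted p = 0.0321) were lower. At 72 h Tbkbp1, an adaptor of the receptor kinase Tbk1, was higher (0.54, adjusted p = 0.00758), as was Atg7 (0.42, adjusted p = 0.0437), and Atg16l2 (-0.78, adjusted p = 0.00267) and Atg4c (-0.70, adjusted p = 0.00103) were lowest. At 144 h the mitophagy receptor Fundc1 (0.84, adjusted p = 0.0182) and Tbkbp1 (0.60, adjusted p = 0.00292) were highest and Vamp8 (-0.97, adjusted p = 7.96e-05) and Tecpr1 (-0.55, adjusted p = 0.00606) lowest. Some calls of the autophagy genes named by rule were lost under the alternatives, as counted in the last section. The response at 72 h differed in 0 upward and 3 downward of the 67 (3.38% and 1.86% of all genes). That at 144 h differed in 2 and 2 (4.89% and 3.7% of all genes). At 72 h 1 of the 3 was Ulk1, the kinase that mTOR inhibits, at 93.2 and 106 TPM in KH at 0 h and 72 h and at 94.3 and 75.6 TPM in DNMT3ABKO (0.19, adjusted p = 0.0304, and -0.31, adjusted p = 0.00174).

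Sqstm1 is also known as a target of the transcription factor Nrf2, encoded by Nfe2l2, and its protein binds Keap1, which holds Nrf2 in check. Of 10 genes tested from a list of 11 that holds both regulators and Nrf2 targets, 5 rose and 4 fell at 72 h in KH, and 2 and 6 at 144 h. In DNMT3ABKO 2 rose and 2 fell at 72 h, and 0 and 4 at 144 h. The shares of all genes were 28.3% and 19.5% at 72 h in KH, and 27.4% and 23.9% at 144 h. In DNMT3ABKO they were 34.3% and 21.6%, and 31.4% and 26.2%. Hmox1, heme oxygenase, fell from 161 to 39.7 TPM at 144 h in KH and from 144 to 38.3 TPM in DNMT3ABKO (-1.99, adjusted p = 9.8e-08, and -1.88, adjusted p = 6.25e-08, limma). Nqo1 (-0.48, adjusted p = 0.014, and -0.64, adjusted p = 0.00243), Srxn1 (-0.67, adjusted p = 0.000222, and -0.47, adjusted p = 0.00157) and Keap1 (-0.26, adjusted p = 0.038, and -0.46, adjusted p = 0.00176) fell in both lines at 144 h by limma. At 72 h in KH, Nqo1 (15.2 against 10.8 TPM untreated) and Keap1 (17.1 against 14.2 TPM) stood higher. Srxn1 (15.1 against 18.4 TPM) stood lower. In DNMT3ABKO the 72 h and 0 h libraries overlapped for each of these genes. Nfe2l2 did not pass (-0.15, adjusted p = 0.264, and -0.18, adjusted p = 0.182). Between the lines at 144 h, where Sqstm1 was 1.90-fold higher in DNMT3ABKO, 1 of the 10 was higher and 1 lower (11% and 15.5% of all genes). Whether Nrf2 had a part in the Sqstm1 levels was not tested. Of the lysosome and autophagy regulators, Tfeb fell at 144 h (-0.53, adjusted p = 0.000276, and -0.51, adjusted p = 0.000257, limma) and Tfe3 did not pass (0.29, adjusted p = 0.0552, and 0.28, adjusted p = 0.0581). At 72 h Tfe3 rose in DNMT3ABKO (0.46, adjusted p = 0.00711) and did not pass in KH (0.28, adjusted p = 0.0675). Tfeb was higher in DNMT3ABKO than in KH at 0 h (0.52, adjusted p = 0.00224) and 144 h (0.53, adjusted p = 0.000687), not at 72 h (0.05, adjusted p = 0.72). Its 72 h response differed between the lines (-0.47, adjusted p = 0.0349).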

How the data were processed

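Total RNA from mouse ES cells was depleted of ribosomal RNA and spiked with ERCC RNA by the authors before sequencing. Per the submitters' processing notes, cutadapt 2.4, STAR 2.7.3a, StringTie 2.0 and mm10 were used, and the methods name GENCODE VM19 and DESeq2. The deposited values are TPM per gene, 1 file per library, summing to 1000000. Counts and depth cannot be recovered from TPM, so no counting interval is given.

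Repeated entries of a gene were summed. Levels were compared as log2(TPM + 1) with limma 3.58.1 (lmFit, eBayes with trend) in R 4.3.3, with 1 coefficient for each of the 6 groups of 2 libraries, 11 contrasts, two-sided, over 15727 genes that averaged 1 TPM or more, and Benjamini-Hochberg adjustment over all of them. A gene was called at an adjusted p under 0.05. Fold changes are ratios of mean TPM; log2 differences understate the change of low genes. In simulated data for KH at 72 h against 0 h, 168 of 200 genes changed by a log2 of 1 were recovered (84%), with 9 false calls, over 15727 genes. Only those 200 genes were changed, and each gene was given 1 normal spread in all groups. In the real contrast 7520 genes were called, so these rates may not hold there.

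The 10 genes, the gene and marker lists and the tests were chosen with earlier results of these data known. Other autophagy genes were named by a rule: in each role, at most the 3 with the largest mean difference among those called alike in both lines at 144 h, and for each comparison of the lines at most the 2 highest and 2 lowest called. Of the Nrf2 list, both regulators and the targets called alike at 144 h were named. The values were recomputed with 0.1 TPM as the pseudocount, with no filter (37364 genes), with median-ratio scaling, a fit of the compared groups only, a replicate block within each line, and leaving out each library. Python 3.11.15 with pandas 2.3.3, NumPy 2.4.6 and matplotlib 3.10.9 was used for tables and plots. Promoter sequences came from RefSeq (GRCm38.p6); shared sequence and overlapping genes were found in GENCODE M21 transcripts and annotation.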

Additional observations from a re-analysis of the deposited data

Results flagged for a closer look

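These results are differences between KH and DNMT3ABKO in the response to INK128, as DNMT3ABKO minus KH in log2(TPM + 1). Those of the 10 chosen genes are a description, since the genes were chosen with these same contrasts known. For Calcoco2 the 72 h response differed by -1.23 (SE 0.17), with values from -1.50 to -1.07 over the 13 alternatives tried and a call in 13 of 13. For Gabarapl2 at 72 h it differed by 0.43 (SE 0.09, 0.37 to 0.50), called in only 4 of 13. At 144 h the differences were 0.55 for Sqstm1 (0.47 to 0.62, 13 of 13), -0.65 for Optn (-0.69 to -0.61, 13 of 13) and 0.44 for Gabarapl2 (0.38 to 0.51, 11 of 13).

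For the other autophagy genes the difference in response was tested. At 72 h the differences were -0.50 for Ulk1 (SE 0.09, adjusted p = 0.0098, called under 11 of 13 alternatives), -0.61 for Wdr45 (SE 0.14, adjusted p = 0.0307, 6 of 13) and -0.47 for Tex264 (SE 0.12, adjusted p = 0.047, 3 of 13), by limma. At 144 h they were 0.72 for Atg14 (SE 0.12, adjusted p = 0.00544, 13 of 13), 0.46 for Ncoa4 (SE 0.11, adjusted p = 0.035, 4 of 13), -0.86 for Vamp8 (SE 0.14, adjusted p = 0.00435, 13 of 13) and -0.63 for Tecpr1 (SE 0.16, adjusted p = 0.0378, 5 of 13). In each of these differences all 4 groups had 2 libraries, and the 2 lines' responses use separate untreated libraries. The macrophage markers differed between the lines in response too, with 2 of 11 lower at 72 h and 4 of 11 higher at 144 h in DNMT3ABKO, and their part in these values was not tested.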

How the results depend on the processing

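No called value of the 10 chosen genes changed direction under any alternative. The same held for the other autophagy genes named by the rule, in the comparisons that named them. Of the recomputed values of those named genes, 377 kept their call and 70 lost it. Direction was not checked for the unnamed autophagy genes, the Nrf2 list, Tfeb, Tfe3 or the markers. With pseudocount 0.1, the chosen genes called in DNMT3ABKO against KH at 0 h numbered 2 in place of 1. Without the filter they also numbered 2, and the other autophagy genes called numbered 1 in place of 3 in that contrast, 1 in place of 3 for the 72 h response and 2 in place of 4 for the 144 h response. With median-ratio scaling the chosen genes called numbered 5 in place of 2 (KH 144 h against 72 h), 8 in place of 4 (DNMT3ABKO 144 h against 72 h) and 1 in place of 2 (72 h response), and the other genes 7 in place of 3 (0 h between lines) and 9 in place of 4 (144 h response). Fitting only the compared groups gave 4, 0 and 1 chosen genes (KH 144 h against 72 h, 0 h between lines, 72 h response). It gave 24 other genes in place of 11 (KH 144 h against 72 h), 21 in place of 35 and 20 in place of 34 (DNMT3ABKO 72 h and 144 h), 29 in place of 18 (DNMT3ABKO 144 h against 72 h), 0, 17 in place of 10 (lines at 0 h and 72 h), 1 and 2 (responses). The cause of these shifts was not tested.

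Same-numbered libraries did not deviate together (correlations of their deviations from -0.10 to 0.10), and the labels do not say that a number marks a shared run, so the numbers were not taken as pairs. With the replicate block within each line, the other genes called numbered 7 in place of 11 (KH 144 h against 72 h), 1 in place of 3 (0 h between lines) and 2 in place of 4 (144 h response), and the chosen genes 1 in place of 2 (72 h response); the calls lost were Sqstm1 and Calcoco2 between the lines at 72 h and 144 h and Gabarapl2 in the 72 h response.

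Leaving out 1 library gave 16 to 24 other genes (28 with all; KH 72 h), 3 to 4 (KH 144 h against 72 h), 9 to 10 (DNMT3ABKO 144 h against 72 h), 0 to 17, 4 to 6 and 6 to 13 (lines at 0, 72 and 144 h), and 0 to 11 and 2 to 11 (responses). The chosen genes called numbered 1 to 2 (KH 144 h against 72 h), 1 to 2 (0 h between lines), 1 to 3 and 2 to 5 (responses). The counts of 17, 11, 11 and 5 came without DNMT3ABKO 0 h replicate 2, one of the pair with the widest replicate spread; Map1lc3b was then called between the lines at 0 h (-0.43). The lone library left is assumed to vary like the other groups. With 2 libraries per group and no depth in the files, the counting error behind each level is not known.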
